A study of Mus musculus with 8 samples.

Results

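The genes described here are 42 named genes of aminoacyl-tRNA synthesis and of the amino acid response. They comprise 20 cytosolic synthetases, 11 mitochondrial synthetases, 3 transcription factors of the ATF family, 4 effectors of the amino acid response and 4 enzymes of serine and one-carbon metabolism. Members were taken as the non-control array probes that carry these gene names, which gave 51 of 39429 distinct probes and 42 of 31784 gene names on the array. Of the 42 members, 41 had a probe that passed the filter on dim probes, and each of these 41 was well above background on all 8 arrays. The exception, Nars2 (mitochondrial asparaginyl-tRNA synthetase), was well above background on 0 arrays and gets no value.

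The cells were C10, a pre-B line derived from the mouse line HAFTL. They carry the transcription factor C/EBPα in an inducible form and switch towards a macrophage-like state when C/EBPα is induced. The line labelled Tet2KD was made with a short hairpin RNA (shRNA) named for Tet2, and the control line with a control shRNA. Each line was sampled after 24 h of induction, and before it (0 h). Inducing medium contained 100 nM estradiol with 10 ng/ml of both cytokines, IL-3 and M-CSF, and all cells were kept under puromycin. Each of the 4 groups (Tet2KD at 24 h, Tet2KD at 0 h, control at 24 h, control at 0 h) held 2 arrays. The submitters describe these as technical duplicates, so p-values rest on the spread of duplicates and say nothing of the spread between cultures.

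Aminoacyl-tRNA synthetases attach each amino acid to its tRNA, and most amino acids have a cytosolic enzyme and a separate, nuclear-encoded mitochondrial enzyme. When uncharged tRNA accumulates, the kinase Gcn2 (gene Eif2ak4) phosphorylates the initiation factor eIF2, which slows general translation and favours translation of ATF4. ATF4 then acts with C/EBP family partners at composite C/EBP-ATF sites in genes for amino acid synthesis, transport and tRNA charging, and Atf4 itself is controlled in large part at translation, which mRNA arrays do not measure.

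On each array 47.4% to 55.6% of the probe spots were brighter than background by the scanner software’s criterion, and the 75th percentile of the signal ran from 722 to 1435 intensity units. Duplicate arrays correlated with r of 0.992 to 0.994 across genes. Tet2 itself, an enzyme that oxidises methylated cytosine, was at 92.8% of control in the arrays labelled Tet2KD at 0 h (log2 difference -0.11, limma adjusted p = 0.533) and at 100.4% at 24 h (adjusted p = 0.982) by the probe that stands for the gene. A second Tet2 probe had differences of -0.28 at 0 h (adjusted p = 0.229) and 0.16 at 24 h (adjusted p = 0.49). Another Tet2 probe, well above background on 4 of 8 arrays and therefore left out of the test, averaged -5.11 on the Tet2KD arrays against -3.60 on the control arrays at 0 h, and -5.20 against -4.52 at 24 h. Neither tested probe showed a detectably lower level on the arrays labelled Tet2KD, and the name below is that of the label. Macrophage markers were higher after induction (5 of 6 tested in each line) and markers of dividing cells lower (5 of 5 in each line), with a median log2 change of the division markers of -4.86 in the Tet2KD line and -4.25 in the control line. Of 7 pre-B markers, 2 were called lower in the Tet2KD line and 3 in the control line. Their median log2 change was -0.64 in the Tet2KD line and -0.91 in the control line. Among markers of other cells, 2 of 4 T cell, 1 of 4 erythroid and 1 of 4 fibroblast genes passed the filter on dim probes, and none of these was called in either induction. In these bulk samples a lower share of cells expressing a gene and less of its RNA per cell cannot be told apart.

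Over the induction, the members that rose most were the stress factor genes Atf3 and Atf5 and the effectors Chac1 and Sesn2, while synthetases of both compartments were mostly lower. A change was called where it was at least 2-fold with a limma adjusted p under 0.05, taken over the 16154 genes tested. In the Tet2KD line 4 members were called higher (Atf3, Atf5, Chac1, Sesn2) and 4 lower (Vars, Tars2, Yars2, Mars2), where 16.7% and 15.5% of all genes were called higher and lower (32.2% in either direction). In the control line 3 members were called higher (Atf3, Chac1, Sesn2) and 3 lower (Vars, Tars2, Yars2), where the shares of all genes were 14.2% and 13.1% (27.3% in either direction). The 3 higher and the 3 lower calls of the control line were all among those of the Tet2KD line. The members' called shares were thus below those of all genes, and most of their changes were smaller than 2-fold.

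The words rose and fell are used below for an adjusted p under 0.05 at any size of change, and called only where the change also reached 2-fold. At the adjusted p alone, 6 members rose and 23 fell in the Tet2KD line, where 36.2% of all genes rose and 32% fell. In the control line 5 members rose and 20 fell, where 30.7% of all genes rose and 31.1% fell. The median log2 change of the 41 members was -0.36 in the Tet2KD line, against 0.14 over all genes, and -0.29 in the control line, against -0.0002 over all genes. Scaling each array to its median instead of its 75th percentile moved the median of all genes to -0.11 in both lines, and the members' medians to -0.61 in the Tet2KD line and -0.39 in the control line. Some alternatives to this fit, such as other probe filters, change only the test and not the value, and so cannot reverse a sign. Under 17 alternatives none of the passing changes reversed its sign, and 26 of 29 in the Tet2KD line and 18 of 25 in the control line passed in all of them.

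**Figure D1:**
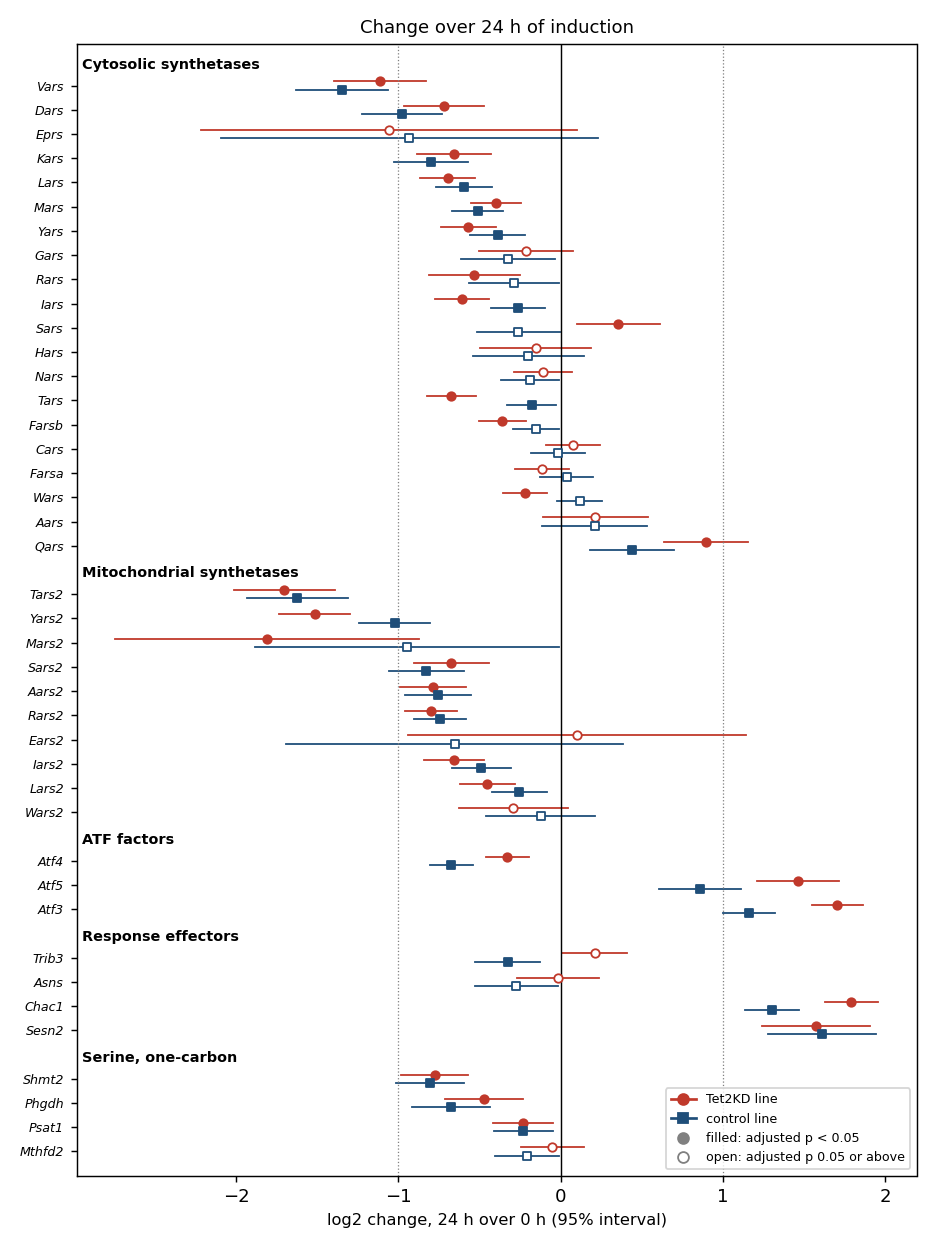
Log2 change over 24 h of induction (24 h over 0 h) with its 95% interval for the 41 members by role, with the Tet2KD line (circles) above the control line (squares). Dotted lines mark 2-fold, filled symbols an adjusted p under 0.05; most synthetases lie left of 0, while Atf3, Atf5, Chac1 and Sesn2 lie to the right in both lines.

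Atf4, whose protein is the central factor of the response, was lower at 24 h in both lines, while Atf3 and Atf5 were higher. Atf4 had a normalised log2 signal (log2 of the signal over the array's 75th percentile) of 6.41 and 6.42 on the Tet2KD arrays at 24 h, against 6.77 and 6.72 at 0 h. The control arrays had 6.24 and 6.24 at 24 h, against 6.89 and 6.93 at 0 h. Both lines were lower at 24 h with no overlap between times, and the 24 h arrays labelled Tet2KD lay above those of the control line. The fall was to 79.6% of the 0 h level in the Tet2KD line (log2 change -0.33 ± 0.05, adjusted p = 0.00246) and to 62.7% in the control line (-0.67 ± 0.05, adjusted p = 0.000135). A second Atf4 probe gave -0.69 in the Tet2KD line and -0.99 in the control line.

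Atf3, a stress-induced repressor and activator of the same family, had 2.66 and 2.53 on the Tet2KD arrays at 24 h, against 0.91 and 0.87 at 0 h, and 2.31 and 2.29 on the control arrays at 24 h, against 1.14 and 1.13 at 0 h. It rose 3.26-fold in the Tet2KD line (log2 change 1.71 ± 0.06, adjusted p = 7.2e-06) and 2.23-fold in the control line (1.16 ± 0.06, adjusted p = 3.24e-05). The times did not overlap in either line, and the Tet2KD arrays were the lower ones at 0 h and the higher ones at 24 h. The Atf3 probe lies at chr1:192994547-192994606 (mm9), the probe that stands for Atf4 at chr15:80087902-80087961 and that for Atf5 at chr7:52067627-52067686. Atf5, a relative of Atf4 that is likewise regulated at translation, had 7.27 and 7.23 on the Tet2KD arrays at 24 h, against 5.90 and 5.67 at 0 h, and 6.76 and 6.66 on the control arrays at 24 h, against 5.93 and 5.77 at 0 h. Its rise was 2.76-fold in the Tet2KD line (1.46 ± 0.10, adjusted p = 6.59e-05) and 1.81-fold in the control line (0.86 ± 0.10, adjusted p = 0.000684), so that it was called in the Tet2KD line and stayed under 2-fold in the control line. The times did not overlap in either line, and the lines overlapped at 0 h but not at 24 h.

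The 4 effectors split into Chac1 and Sesn2, which were called higher in both lines, and Asns and Trib3, which were not called in either. Chac1, an enzyme that degrades glutathione, had 5.77 and 5.70 on the Tet2KD arrays at 24 h, against 3.98 and 3.90 at 0 h, and 5.60 and 5.55 on the control arrays at 24 h, against 4.31 and 4.23 at 0 h. It rose 3.46-fold in the Tet2KD line (1.79 ± 0.07, adjusted p = 6.99e-06) and 2.47-fold in the control line (1.30 ± 0.07, adjusted p = 2.43e-05). The 0 h arrays of the Tet2KD line were the lowest of the 4 groups and its 24 h arrays the highest. The probe lies at chr2:119179990-119180049 (mm9).

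Sesn2, a leucine sensor that restrains the growth kinase complex TORC1, had 4.56 and 4.37 on the Tet2KD arrays at 24 h, against 3.02 and 2.76 at 0 h, and 4.14 and 3.93 on the control arrays at 24 h, against 2.50 and 2.35 at 0 h. The rises were 2.98-fold in the Tet2KD line (1.57 ± 0.13, adjusted p = 0.000156) and 3.05-fold in the control line (1.61 ± 0.13, adjusted p = 0.000164). Both time points were higher on the Tet2KD arrays, though neither difference passed (0.43 at 24 h and 0.47 at 0 h, adjusted p = 0.0912 and 0.0766). With the replicate number as a block (same-numbered arrays shared a slide) both passed (adjusted p = 0.00974 at 24 h and 0.00852 at 0 h). The probe lies at chr4:132048858-132048917 (mm9).

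Trib3, a pseudokinase induced by ATF4 that feeds back on it, had 4.99 and 5.17 on the Tet2KD arrays at 24 h, against 4.89 and 4.84 at 0 h, and 4.72 and 4.82 on the control arrays at 24 h, against 5.09 and 5.11 at 0 h. The times did not overlap in either line but ran in opposite directions. It fell in the control line (-0.33 ± 0.08, adjusted p = 0.0152) and had a log2 change of 0.21 ± 0.08 in the Tet2KD line (adjusted p = 0.0634, and -0.04 with median scaling). The fall in the control line missed the adjusted p without control 0 h replicate 1, control 0 h replicate 2 or control 24 h replicate 1 (highest 0.0809). Asns, asparagine synthetase and the textbook target of the amino acid response, had 6.99 and 6.86 on the Tet2KD arrays at 24 h, against 7.03 and 6.85 at 0 h, and 6.72 and 6.55 on the control arrays at 24 h, against 6.95 and 6.87 at 0 h. Its log2 change was -0.02 ± 0.10 in the Tet2KD line (adjusted p = 0.901) and -0.27 ± 0.10 in the control line (adjusted p = 0.0627), and the Tet2KD arrays of both times overlapped. With the replicate block, the control change of Asns had an adjusted p of 0.00582 and the Tet2KD change of Trib3 one of 0.0454.

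**Figure D2:**
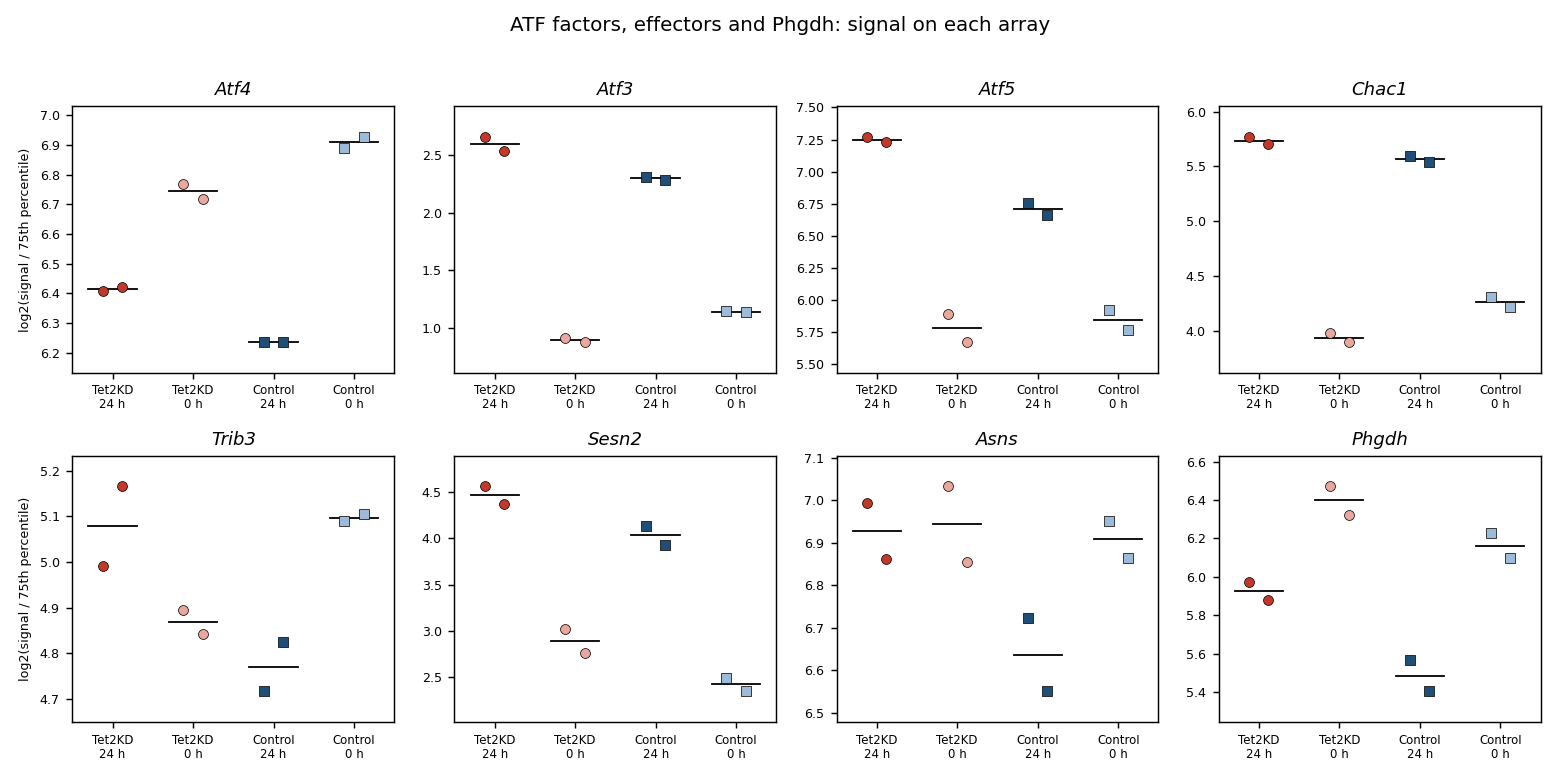
Normalised log2 signal of 8 members on each array, with a panel and its own axis per gene. Points are single arrays in the order Tet2KD 24 h, Tet2KD 0 h, control 24 h, control 0 h, and bars are the means of 2 arrays; Atf3, Atf5, Chac1 and Sesn2 are higher and Atf4 and Phgdh lower at 24 h in both lines.

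Composite C/EBP-ATF elements are known to carry the letters TGATGNAA, and these letters were looked for on both strands in the RefSeq promoter windows of the mouse assembly GRCm38.p6 (250 bases before to 50 after each gene's start). Of the 42 members, 34 matched an entry by name (not matched were Cars, Hars, Lars, Mars, Nars, Rars, Vars and Wars). The letters occurred in 9 of these 34 (26.5%), against 1219 of 27025 genes in the whole table (4.51%). They were in 4 of 11 genes among the ATF factors, effectors and serine enzymes (Atf3, Asns, Chac1, Trib3), in 5 of 12 matched cytosolic synthetases (Aars, Gars, Iars, Tars, Yars) and in 0 of 11 mitochondrial synthetases. The windows that follow are shown because they include members that rose, members that fell and members without a call. Each is read on the gene's own strand, 5′ to 3′, with the matched letters in capitals:
Chac1 (chr2:119351038-119351067, + strand): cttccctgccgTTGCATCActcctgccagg
Atf3 (chr1:191183425-191183454, - strand): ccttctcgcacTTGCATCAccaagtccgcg
Asns (chr6:7693214-7693243, - strand): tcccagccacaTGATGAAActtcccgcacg
Gars (chr6:55037960-55037989, + strand): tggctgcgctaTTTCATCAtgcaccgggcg
Tars (chr15:11399655-11399684, - strand): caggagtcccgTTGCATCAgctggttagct
The capitals of Asns read TGATGAAA on the gene's strand, and those of the other 4 are matches on the opposite strand. Counted from the gene start, the match began at -193 in Chac1, -110 in Atf3, -30 in Gars, -23 in Asns and -15 in Tars. Among the 9 genes with the letters, Chac1 and Atf3 were called higher in both lines and none of the other 7 was called. Sesn2 and Atf5, which rose in both lines, had no match in the window. A match describes letters only.

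The 4 serine and one-carbon enzymes had log2 changes below 0 in both lines, and none was called. Shmt2, the mitochondrial serine hydroxymethyltransferase, had 5.17 and 5.03 on the Tet2KD arrays at 24 h, against 5.92 and 5.83 at 0 h, and 4.85 and 4.75 on the control arrays at 24 h, against 5.65 and 5.56 at 0 h. The times did not overlap, and the Tet2KD arrays lay above the control arrays at both. It fell in the Tet2KD line (-0.77 ± 0.08, adjusted p = 0.000415) and in the control line (-0.80 ± 0.08, adjusted p = 0.000402). Phgdh, the entry enzyme of serine synthesis, had 5.97 and 5.88 on the Tet2KD arrays at 24 h, against 6.47 and 6.32 at 0 h, and 5.57 and 5.40 on the control arrays at 24 h, against 6.23 and 6.10 at 0 h. Again the times did not overlap, with the Tet2KD arrays above the control arrays at both. Its falls were -0.47 ± 0.10 in the Tet2KD line (adjusted p = 0.0063) and -0.68 ± 0.10 in the control line (adjusted p = 0.00154). In the fit of every probe by itself, a second Phgdh probe gave -0.41 in the Tet2KD line, which missed (adjusted p = 0.0512). In the control line it gave -0.73 (adjusted p = 0.00667).

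Psat1, the aminotransferase that follows Phgdh, fell by 0.23 on the log2 scale in each line (adjusted p = 0.0332 in the Tet2KD line and 0.0382 in the control line), and a second Psat1 probe gave -0.59 in the Tet2KD line and -0.70 in the control line. The smaller Psat1 changes missed the adjusted p without any 1 of the 24 h arrays, and also without Tet2KD 0 h replicate 1 in the Tet2KD line (highest 0.145) and without control 0 h replicate 2 in the control line (highest 0.165). Mthfd2, the mitochondrial folate dehydrogenase, had log2 changes of -0.05 in the Tet2KD line (adjusted p = 0.589) and -0.21 in the control line (adjusted p = 0.0652, and 0.0359 with the replicate block).

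Of the 20 cytosolic synthetases, 2 rose and 11 fell in the Tet2KD line and 1 rose and 8 fell in the control line, and Vars was the only one called. The median log2 change over the 20 was -0.38 in the Tet2KD line and -0.26 in the control line. With median scaling Dars was also called lower in the control line (-1.08) and Eprs in both lines (-1.31 Tet2KD, -1.04 control). The control change of Dars was -1.10 without control 0 h replicate 2 and -1.02 without control 24 h replicate 1. Vars, which charges tRNA with valine, had 2.65 and 2.41 on the Tet2KD arrays at 24 h, against 3.72 and 3.57 at 0 h, and 2.42 and 2.34 on the control arrays at 24 h, against 3.81 and 3.63 at 0 h. It fell to 46.2% of its 0 h level in the Tet2KD line (-1.11 ± 0.11, adjusted p = 0.000349) and to 39.4% in the control line (-1.35 ± 0.11, adjusted p = 0.000182). Without Tet2KD 24 h replicate 2, the change of Vars in the Tet2KD line was -0.99, just under 2-fold. The times did not overlap in either line, and the lines overlapped at both times. The probe lies at chr17:35152339-35152398 (mm9).

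The cytosolic synthetases that fell in both lines besides Vars were Dars (log2 change -0.72 Tet2KD, -0.98 control), Kars (-0.66 Tet2KD, -0.80 control), Lars (-0.69 Tet2KD, -0.59 control), Mars (-0.40 Tet2KD, -0.51 control), Iars (-0.61 Tet2KD, -0.26 control), Tars (-0.67 Tet2KD, -0.18 control) and Yars (-0.57 Tet2KD, -0.39 control). These enzymes charge tRNAs with aspartate, lysine, leucine, methionine, isoleucine, threonine and tyrosine, and Kars also serves the mitochondria. Tars in the control line missed the adjusted p in each of the 8 fits that left out 1 array (0.0678 to 0.209), and Iars missed it in the 4 that left out a control array (highest 0.0848), while Yars missed it with median scaling. Farsb, Rars and Wars fell in the Tet2KD line (-0.36, -0.53 and -0.22), with control changes of -0.15, -0.29 and 0.12, and Wars missed the adjusted p without Tet2KD 0 h replicate 1 or Tet2KD 24 h replicate 1 (highest 0.0779). Of these 3 differences between the lines, that of Wars passed the test of the difference given further on (adjusted p = 0.0426), and those of Farsb and Rars did not (0.141 and 0.345). With the replicate block the control changes of Farsb and Rars passed as well (adjusted p = 0.0463 and 0.0477).

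Qars, the glutaminyl enzyme, went the other way. It had 5.40 and 5.33 on the Tet2KD arrays at 24 h, against 4.51 and 4.43 at 0 h, and 5.44 and 5.17 on the control arrays at 24 h, against 4.86 and 4.87 at 0 h. All 24 h arrays lay above all 0 h arrays. It rose by 0.90 ± 0.10 on the log2 scale in the Tet2KD line (adjusted p = 0.000569) and by 0.44 ± 0.10 in the control line (adjusted p = 0.012). The rise in the control line missed the threshold without control 0 h replicate 1 or 2 (highest adjusted p = 0.0531), with median scaling (0.285) and in the authors’ deposited table (0.0831). Sars, the seryl enzyme, rose in the Tet2KD line (0.36 ± 0.10, adjusted p = 0.0246), but not without Tet2KD 0 h replicate 2 or Tet2KD 24 h replicate 1 (highest 0.115) nor with quantile normalization or median scaling, and had a control change of -0.26 (adjusted p = 0.0741, and 0.0042 with the replicate block).

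Eprs, a fused enzyme for glutamate and proline, had the widest spread among the cytosolic synthetases. It had -0.95 and -0.20 on the Tet2KD arrays at 24 h, against 0.15 and 0.82 at 0 h, and -0.95 and -0.11 on the control arrays at 24 h, against 0.01 and 0.79 at 0 h. The second replicate of each group was the higher one, and replicate 2 of every group shared a slide. Its changes of -1.06 ± 0.46 and -0.93 ± 0.46 did not pass (adjusted p = 0.0913 in the Tet2KD line and 0.137 in the control line). With the replicate number as a block they did (adjusted p = 9.64e-05 in the Tet2KD line, where Eprs was then called lower, and 0.000166 in the control line). The remaining cytosolic synthetases Aars, Cars, Farsa, Gars, Hars and Nars passed in neither line, with log2 changes from -0.33 (Gars, control line) to 0.21 (Aars, both lines, and -0.04 in the Tet2KD line with median scaling). With the replicate block, Aars passed as higher (adjusted p = 0.0259 in the Tet2KD line and 0.0309 in the control line) and Gars as lower (0.0354 in the Tet2KD line and 0.00976 in the control line). In the fit of every probe by itself, a second Farsa probe passed as lower in the Tet2KD line (-0.23, adjusted p = 0.037). In the control line it had -0.18 (adjusted p = 0.0824).

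The mitochondrial synthetases had larger falls by their median than the cytosolic ones, a difference given without a test. Of 10 with a value, 8 fell in the Tet2KD line and 7 in the control line, 0 rose in either, and the median log2 change was -0.73 in the Tet2KD line and -0.75 in the control line. Tars2, the mitochondrial threonyl enzyme, had 2.40 and 2.66 on the Tet2KD arrays at 24 h, against 4.18 and 4.27 at 0 h, and 2.54 and 2.63 on the control arrays at 24 h, against 4.08 and 4.33 at 0 h. It fell to 30.7% of its 0 h level in the Tet2KD line (-1.70 ± 0.12, adjusted p = 8.59e-05) and to 32.5% in the control line (-1.62 ± 0.12, adjusted p = 0.000121). The times did not overlap, and the lines overlapped at each time. A second Tars2 probe gave -1.86 in the Tet2KD line and -1.88 in the control line, and the probe used lies at chr3:95543899-95543958 (mm9).

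Yars2, the mitochondrial tyrosyl enzyme, had 0.69 and 0.63 on the Tet2KD arrays at 24 h, against 2.19 and 2.16 at 0 h, and 0.84 and 0.66 on the control arrays at 24 h, against 1.85 and 1.70 at 0 h. All 24 h arrays lay below all 0 h arrays, and at 0 h the Tet2KD arrays were the higher ones. It fell to 35% of its 0 h level in the Tet2KD line (-1.51 ± 0.09, adjusted p = 3.43e-05) and to 49.2% in the control line (-1.02 ± 0.09, adjusted p = 0.00019). In the control line the change was under 2-fold without control 0 h replicate 1 (-0.95), without control 24 h replicate 2 (-0.94) and in the authors' deposited table (-0.94). The probe lies at chr16:16307393-16307452 (mm9).

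Mars2, the mitochondrial methionyl enzyme, had -3.38 and -3.43 on the Tet2KD arrays at 24 h, against -1.63 and -1.56 at 0 h, and -2.16 and -3.39 on the control arrays at 24 h, against -1.86 and -1.80 at 0 h. The control arrays of 24 h differed from each other by more than 1 log2 unit, and replicate 2 lay with the Tet2KD arrays. Mars2 was called lower in the Tet2KD line (-1.81 ± 0.37, adjusted p = 0.00685) and had -0.94 ± 0.37 in the control line (adjusted p = 0.0753). Without control 24 h replicate 1 it was called lower there too (-1.56, adjusted p = 0.000216). The probe lies at chr1:55295642-55295701 (mm9).

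Rars2, Aars2, Sars2, Iars2 and Lars2 fell in both lines without a call, by log2 changes from -0.80 (Rars2) to -0.45 (Lars2) in the Tet2KD line and from -0.83 (Sars2) to -0.25 (Lars2) in the control line. The smallest of these, Lars2 in the control line, missed the adjusted p without control 0 h replicate 1 or either control 24 h array (highest 0.101). With median scaling Aars2 (-1.04) and Rars2 (-1.05) were called lower in the Tet2KD line. Wars2 had -0.29 in the Tet2KD line and -0.12 in the control line and passed in neither. Ears2 had 0.10 in the Tet2KD line and -0.65 in the control line, neither passing, and its Tet2KD arrays at 0 h stood at -0.23 and -1.56.

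**Figure D3:**
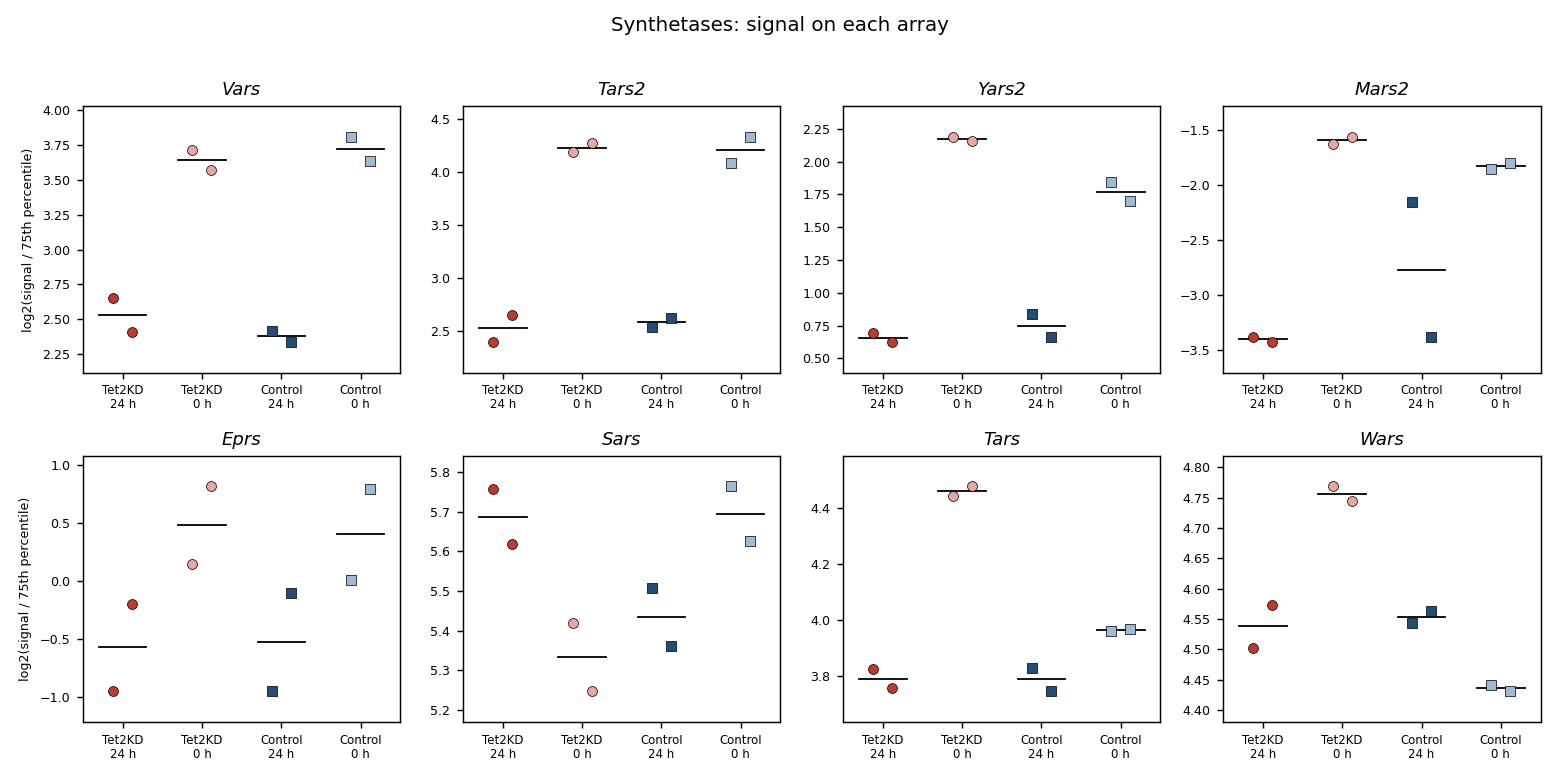
Normalised log2 signal of 8 synthetases on each array, with a panel and its own axis per gene and groups in the order Tet2KD 24 h, Tet2KD 0 h, control 24 h, control 0 h. Points are single arrays and bars the means of 2; Vars, Tars2 and Yars2 are lower at 24 h in both lines, the duplicates of Eprs lie apart in every group, and those of Mars2 lie apart in the control line at 24 h.

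The mitochondrial synthetases outside the 42 members moved alike. Of 6 tested, 5 fell and 1 rose in each line, with 3 called lower in each. Pars2, the mitochondrial prolyl enzyme, was among those called lower (log2 change -1.36 Tet2KD, -1.69 control), while Fars2, the phenylalanyl enzyme, named after its values were seen, rose (0.84 Tet2KD, 0.45 control). Of 6 tested partners of the synthetases, 5 fell in the Tet2KD line and 6 in the control line. Eef1e1, a scaffold protein of the multisynthetase complex, fell to 34.3% in the Tet2KD line (-1.54) and to 47.9% in the control line (-1.06, under 2-fold in the authors’ deposited table), and Qrsl1, a subunit of the mitochondrial glutamyl-tRNA amidotransferase, had -1.05 in the Tet2KD line and -1.11 in the control line. Qrsl1 in the Tet2KD line was under 2-fold without Tet2KD 24 h replicate 2 (-0.95).

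Of 10 genes for eIF2 kinases, their regulators, eIF2 and its phosphatase, 3 rose and 4 fell in the Tet2KD line and 3 rose and 6 fell in the control line. Among the 4 kinases, Eif2ak2 (PKR, the interferon-induced kinase that binds double-stranded RNA) was called higher and Eif2ak4 (Gcn2) fell in both lines. Eif2ak2 had 1.83 and 1.85 on the Tet2KD arrays at 24 h, against -0.85 and -0.82 at 0 h, and 1.00 and 1.01 on the control arrays at 24 h, against -1.16 and -1.13 at 0 h. It rose 6.36-fold in the Tet2KD line (adjusted p = 1.02e-06) and 4.46-fold in the control line (adjusted p = 2.33e-06). Eif2ak4 fell to 56.2% in the Tet2KD line (-0.83, adjusted p = 0.000149) and to 54% in the control line (-0.89, adjusted p = 0.000129). Eif2ak1 (HRI, the haem-regulated kinase) had 0.06 in the Tet2KD line and 0.27 in the control line and passed in neither, and Eif2ak3 (PERK, the kinase of the endoplasmic reticulum) had -0.07 in the Tet2KD line and fell in the control line (-0.27, adjusted p = 0.021).

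Of 22 tested further genes of the ATF4 pathway, 8 rose and 9 fell in the Tet2KD line and 8 rose and 12 fell in the control line. Ddit3, the stress factor CHOP, had 1.25 and 1.38 on the Tet2KD arrays at 24 h, against 0.46 and 0.27 at 0 h, and 0.87 and 0.78 on the control arrays at 24 h, against 0.68 and 0.56 at 0 h. The Tet2KD arrays were the highest at 24 h and the lowest at 0 h. It rose in the Tet2KD line (0.96 ± 0.10, adjusted p = 0.000316), and its control change of 0.20 did not pass (adjusted p = 0.12). Called higher in both lines were Cebpb, a C/EBP partner of ATF4 (8.59-fold Tet2KD, 8.09-fold control), Sesn3, a relative of Sesn2 (log2 change 1.95 Tet2KD, 1.58 control), and Ddit4, an inhibitor of TORC1 (1.44 Tet2KD, 2.67 control). The Ddit4 call in the Tet2KD line was lost without Tet2KD 0 h replicate 2 (0.94) and missed the adjusted p without Tet2KD 24 h replicate 1 or 2 (highest 0.0658). Called lower in both lines were Shmt1, the cytosolic counterpart of Shmt2 (-4.52 Tet2KD, -3.30 control), and Mthfd1, a cytosolic folate enzyme (-2.74 Tet2KD, -2.17 control). Pycr1, which makes proline, had -0.81 in the Tet2KD line and was called lower in the control line (-1.56, under 2-fold by the mean of its probes).

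Among 11 amino acid carriers, 4 rose and 4 fell in the Tet2KD line and 5 rose and 3 fell in the control line. Slc7a5, the light chain of the large neutral amino acid transporter, was called higher (1.40 Tet2KD, 1.32 control, the control rise under 2-fold by the mean of its probes), as was Slc1a4, a carrier of alanine, serine and cysteine (1.23 Tet2KD, 1.08 control, with 0.86 in the control line without control 24 h replicate 2 and under 2-fold in both lines with median scaling). Slc7a11, the cystine carrier, was not well above background on the control arrays of 0 h and was at least 9.14-fold higher on those of 24 h (adjusted p = 6.46e-05), with the 0 h level bounded by the lowest signal that counted as well above background. The bound belongs to the scaling used here, since the log2 change was 3.53 in this fit and 1.72 in the authors’ deposited table. In the Tet2KD line it rose 2.07-fold (adjusted p = 0.00881) and was under 2-fold there without Tet2KD 0 h replicate 1 (0.96) or Tet2KD 24 h replicate 1 (0.96), and in the authors’ deposited table (0.44). Slc43a1, a carrier of leucine and other neutral amino acids, was called lower (-1.78 Tet2KD, -2.17 control). Of 16 genes of the unfolded protein response, 11 rose in the Tet2KD line and 15 in the control line and 0 fell in either, with median log2 changes of 0.61 in the Tet2KD line and 1.24 in the control line. Myc, a known activator of growth and biosynthesis genes, fell to 37.8% in the Tet2KD line and to 37.3% in the control line. The part of the lower Myc and cell division genes in the members' falls was not tested.

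At 24 h, all 11 ATF factors, effectors and serine enzymes had higher means on the Tet2KD arrays than on the control arrays, by a median of 0.30 on the log2 scale. Over all genes, 56% had a higher mean on the Tet2KD arrays, and the 11 of 11 stood under each of the scalings and normalizations tried. Among the synthetases, 14 of 20 cytosolic and 4 of 10 mitochondrial ones had a higher mean on the Tet2KD arrays at 24 h. The 11 genes were read from the same arrays and are not replicates of the difference between the lines. At 0 h, 6 of the 11 had a higher mean on the Tet2KD arrays. Of the 43 tested stress kinase, ATF4 pathway and carrier genes outside the members, 25 had one at 24 h. No member was called in either direction by limma, where 1.04% of all genes were called higher and 0.997% lower (2.04% in either direction). An unadjusted p under 0.05 was found for 14 members, and the share of all genes at that threshold was not taken. At the adjusted p alone, 3 members were higher in the Tet2KD line and 0 lower, where 7.39% and 6.45% of all genes passed. These were Atf5 (0.54 ± 0.10, adjusted p = 0.0257), Phgdh (0.44 ± 0.10, adjusted p = 0.0393) and Atf3 (0.30 ± 0.06, adjusted p = 0.037). With the replicate block the number was 11, where 15.9% of all genes passed as higher, and with median scaling or with no filter on dim probes it was 0. In the fit of every probe by itself, a second Phgdh probe had 0.48 and missed (adjusted p = 0.0935). The mean of the Phgdh probes missed the adjusted p as well. Of the 3, Atf5 passed in the 4 fits without 1 of the 0 h arrays and in none without 1 of the 24 h arrays, and the others in none of the 8. Without control 24 h replicate 2, Mars2 was called lower (-1.25, adjusted p = 0.0157).

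At 0 h, no member was called by limma either, where 0.334% of all genes were called higher and 1.39% lower (1.73% in either direction). An unadjusted p under 0.05 was found for 13 members, again without a share of all genes at that threshold. At the adjusted p alone, Tars (0.50 ± 0.06, adjusted p = 0.00854), Yars2 (0.40, adjusted p = 0.0406), Yars (0.37, adjusted p = 0.0243) and Wars (0.32, adjusted p = 0.0218) were higher in the Tet2KD line and Chac1 (-0.32, adjusted p = 0.0338) was lower, where 5.93% and 7.56% of all genes passed. Tars had 4.45 and 4.48 on the Tet2KD arrays, against 3.96 and 3.97 on the control arrays. It passed in 7 of the 8 fits without 1 array and missed without control 0 h replicate 1 (adjusted p = 0.057), and the other 4 passed in 0 to 2 of the 8. The replicate block gave 7 higher and 4 lower, where 11.2% of all genes passed as higher and 12.8% as lower. Median scaling gave 0 and 0, where 0.347% and 1.08% did so. Without Tet2KD 0 h replicate 1, Ears2 was called lower (-1.22, adjusted p = 0.03).

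The difference between the inductions (Tet2KD minus control) compares the changes of the lines on these arrays, and its p-values say nothing of the spread between cultures. No member was called by limma, where 2.36% of all genes were called higher and 1.47% lower (3.83% in either direction). An unadjusted p under 0.05 was found for 12 members, with no share of all genes taken at that threshold. At the adjusted p alone, 6 members were higher, where 9.22% of all genes were, and 2 lower, where 7.07% were. All 3 ATF factors were among them, with Atf5 at 0.61 ± 0.14 (adjusted p = 0.0435), Atf3 at 0.55 ± 0.09 (adjusted p = 0.0186) and Atf4 at 0.34 ± 0.07 (adjusted p = 0.0365). The effectors Trib3 (0.54 ± 0.11, adjusted p = 0.0344) and Chac1 (0.49 ± 0.09, adjusted p = 0.0266) followed, and Sars was the synthetase with a higher difference (0.62 ± 0.15, adjusted p = 0.0442). Tars (-0.49 ± 0.09, adjusted p = 0.0207) and Wars (-0.34 ± 0.08, adjusted p = 0.0426) were lower. The interval for Sesn2 ran from -0.51 to 0.43 and that for Asns (0.26, and -0.05 with normexp) from -0.10 to 0.61. Without control 24 h replicate 2, Mars2 had a called difference of -1.48 (adjusted p = 0.0204), and without Tet2KD 0 h replicate 1, Ears2 one of 1.42 (adjusted p = 0.0313). With the replicate block Qars, Yars2 and Asns passed too (adjusted p = 0.0453, 0.0181 and 0.0493).

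The 8 differences kept their direction under all 17 alternatives, but not their side of the threshold. With other probe filters, every probe by itself or the replicate block the values themselves did not change, so the direction could not. The deposited table repeats the values of normexp with quantile normalization. With median scaling or with no filter on dim probes 0 of the 8 passed. Of the 8 fits without 1 array, Atf3 passed in 2, Atf5 and Trib3 in 1 each and the other 5 members in 0, with adjusted p of at most 0.129. Atf4 and Atf5 also missed the adjusted p in the authors' deposited table, with differences of 0.15 for Atf4 and 0.36 for Atf5, and with quantile normalization, with 0.13 for Atf4 and 0.41 for Atf5. Pathway genes outside the members differed in both directions. Ddit3 had a difference of 0.75 ± 0.14 (adjusted p = 0.0227) and Eif2ak2 one of 0.51 (adjusted p = 0.0137), while the called difference of Slc7a11 was -2.47 (adjusted p = 0.012), a fitted value since its control arrays of 0 h were not well above background, and it missed the adjusted p without control 24 h replicate 2 or with no filter on dim probes (highest 0.0834). Slc7a11 was at least 1.96-fold higher on the Tet2KD arrays at 0 h (adjusted p = 0.0237) and lower at 24 h (-1.17, adjusted p = 0.0304), each call lost in most alternatives. Ddit4 had a difference of -1.24 ± 0.52 that did not pass (adjusted p = 0.168). In addition, 10 of 16 genes of the unfolded protein response were lower by the adjusted p, with Creld2, a stress-induced protein of the endoplasmic reticulum named after its values were seen, at -1.03 ± 0.11 (adjusted p = 0.00778). The 16 were already apart before induction. On the Tet2KD arrays 13 of them had the higher mean at 0 h (median log2 difference 0.39) and 14 the lower mean at 24 h (median -0.24). Ddit3, Eif2ak2 and the 10 all missed the adjusted p with median scaling and with no filter on dim probes, and Ddit3, Eif2ak2 and 5 of the 10 also missed the adjusted p without some single arrays.

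Some markers of the cell state also differed between the inductions. Of 6 macrophage markers, 3 had a difference above 0 and 3 below, with a median of -0.0012. Called higher were 2 of them, Lyz2 (1.05, adjusted p = 0.00674) and Fcgr1 (1.36, adjusted p = 0.016), with Fcgr1 not well above background at 0 h in either line. Each of these calls was lost in 7 alternatives, median scaling among them. Of 7 pre-B markers, 4 had a difference above 0 and 3 below, with 1 passing in each direction. Of 5 markers of dividing cells, 5 had a difference below 0 and 2 passed as lower, Mki67 (-0.80, adjusted p = 0.0113) and Pcna (-0.64, adjusted p = 0.0162). These 4 genes are named after their values were seen. The mean normalised log2 signal of the 6 macrophage markers was 5.54 to 5.64 on the Tet2KD arrays at 24 h, against -1.41 to -1.30 at 0 h, and 5.35 to 5.44 on the control arrays at 24 h, against -1.22 to -1.20 at 0 h. For the 5 division markers it was -0.024 to 0.062 on the Tet2KD arrays at 24 h, against 4.42 to 4.47 at 0 h, and 0.22 to 0.25 on the control arrays at 24 h, against 4.24 to 4.28 at 0 h. The arrays labelled Tet2KD were thus the lower ones in division markers at 24 h and the higher ones at 0 h. The part of these markers in the members' differences was not tested.

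**Figure D4:**
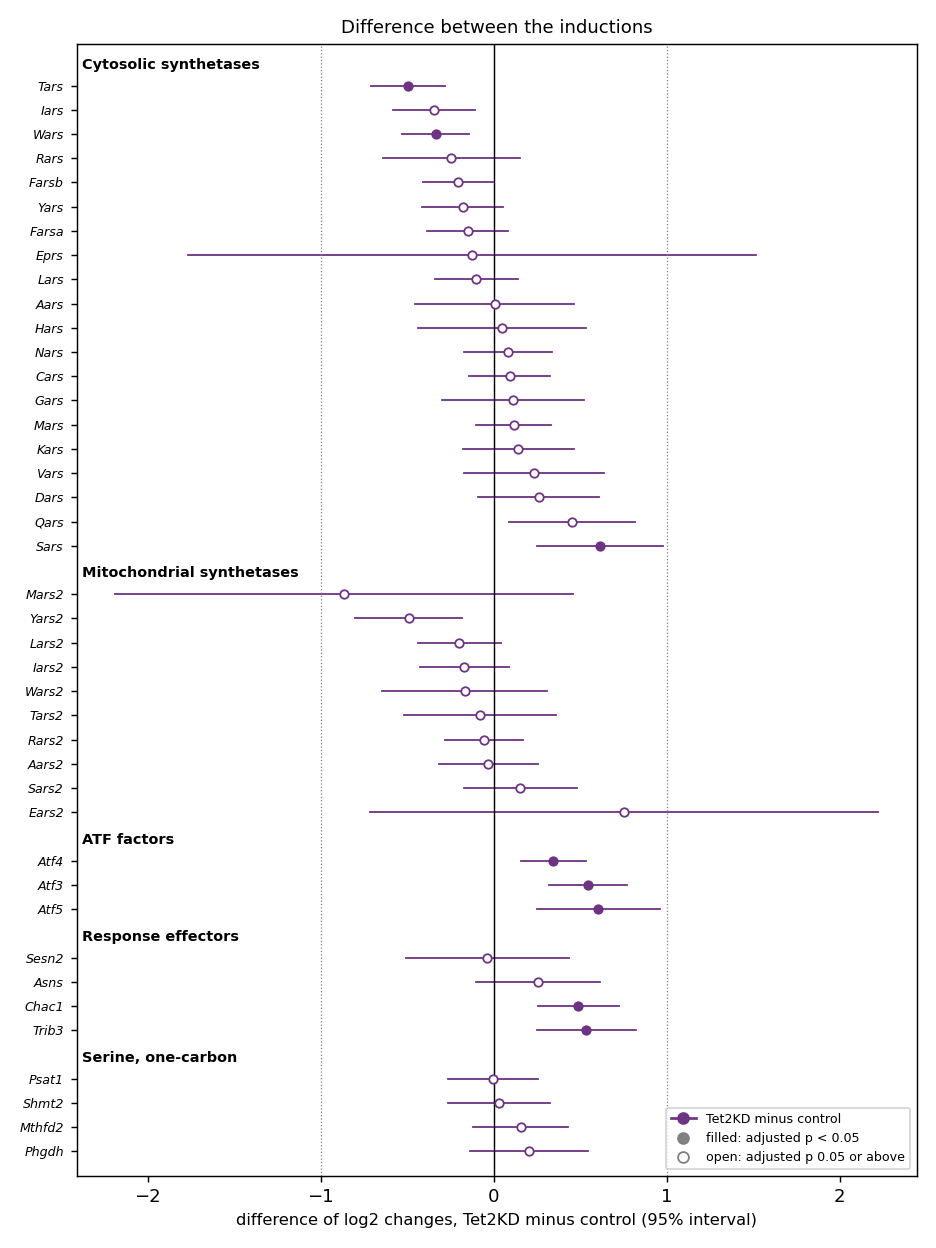
Difference between the log2 changes of the lines (Tet2KD minus control) with its 95% interval for the 41 members by role; dotted lines mark a difference of 1 on either side and filled circles an adjusted p under 0.05. The 3 ATF factors, Trib3, Chac1 and Sars are filled to the right of 0, and Tars and Wars to the left.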

How the data were processed

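Expression was measured in 8 samples of the C10 pre-B cell line with 1-colour Agilent arrays. The 42 members and every other gene list were chosen with earlier results of these data known. Per the labels' protocols, samples of 500 ng total RNA were amplified with an oligo-dT primer and carried Cy3. Per the file headers, the deposited scanner files hold spot intensity on arrays of design 026655, annotated on mouse build mm9 and extracted with Feature Extraction 10.7.3.1 (protocol GE1_107_Sep09). The processed intensity used here had its background subtracted by the scanner software, with no scaling between arrays, per the file headers. The authors' deposited value table holds log2 values, and the submitters' processing notes name limma without a version. A recomputation with normexp (offset 50) on the mean and background signals followed by quantile normalization matched that table on every array, so its scale is log2 of intensity, with every array's median at 6.84.

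The analysed value was the processed intensity on the log2 scale, relative to the 75th percentile of non-control spots on the same array. Outlier spots were dropped and repeat spots averaged. The filter on dim probes asked for both arrays of 1 or more groups to be well above background by the scanner software, and each gene was read from its brightest remaining probe. Probe names are those of the array's design. This left 20306 of 39429 probes and 16154 genes. limma 3.58.1 (R 4.3.3) fitted 4 group means over the 8 arrays, with 4 residual degrees of freedom. Adjusted p-values are limma's, 2-sided, with Benjamini-Hochberg adjustment over the 16154 genes, and ± marks standard errors of the fit. The fit was tested on simulated data. With 2 arrays per group, their number limits the precision.

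Per the file headers, replicate 1 of each group shared a slide and scan, and replicate 2 of each group shared the other. Deviations from the group means of same-numbered arrays correlated in all group pairs (r from 0.298 to 0.413), so the number was used as a replicate block in an alternative fit. The other alternatives changed the background correction, scaling, probe filter, choice of probe, call rule and arrays. Every member with a kept probe was accounted for. Of the other lists, called genes with the largest change, the stress kinases, Ddit3 and Tet2 were named. The promoter windows were searched for the letters TGATGNAA on either strand, with no other motif searched. Some items are not reported here.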

Additional observations from a re-analysis of the deposited data

Results flagged for a closer look

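For 8 members the difference between the inductions itself (Tet2KD minus control) passed at a limma adjusted p under 0.05, which rests on duplicate arrays. None reached 2-fold, and each missed the threshold in at least 8 of 17 alternatives. The log2 differences were 0.62 for Sars, 0.61 for Atf5, 0.55 for Atf3, 0.54 for Trib3, 0.49 for Chac1, 0.34 for Atf4, -0.34 for Wars and -0.49 for Tars. For Atf3 and Chac1 the arrays labelled Tet2KD were the lower ones at 0 h and the higher ones at 24 h, and for Tars and Wars they were the higher ones at 0 h and level with the control arrays at 24 h. A second Wars probe gave a difference of -0.22 (adjusted p = 0.434), and a second Atf4 probe one of 0.30 (adjusted p = 0.237). The groups of 2 arrays were too small for a test of single arrays.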

How the results depend on the processing

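Among results that passed, directions were more stable than thresholds, in part because several alternatives could not change a direction. For the members, the other probe filters, the fit of every probe by itself and the replicate block change the test and not the value. A comparison also keeps its value when the array left out belongs to a group outside it, and the deposited table repeats normexp with quantile normalization. Of the 70 member results at the adjusted p, 0 changed sign in 1190 recomputed values, 965 kept the threshold and 225 lost it. Member results that did not pass changed sign 13 times in 204 values for the Tet2KD induction, 6 in 272 for the control induction, 23 in 646 at 24 h, 26 in 612 at 0 h and 53 in 561 for the difference, among them Gars at 24 h and Gars, Asns, Kars and Mars for the difference under another scaling. The counts at the adjusted p alone were added after the data were seen. With no minimum fold, the members called numbered 5 higher and 20 lower in the control induction, 23 lower in the Tet2KD induction, 4 higher and 1 lower at 0 h, 3 higher at 24 h and 6 higher and 2 lower for the difference between the inductions. With median scaling, 5 were called lower in the control and 8 in the Tet2KD induction, and at the adjusted p alone 0 members were left in either direction at 0 h, at 24 h and for the difference, as with no filter on dim probes. Median scaling also moved the share of all calls that were higher to 39.1% in the Tet2KD induction (52% with the 75th percentile) and to 48.1% for the difference (61.7%). At the adjusted p alone, normexp with quantile normalization and the authors' deposited table each gave 2 higher and 2 lower at 0 h and 1 lower for the difference, quantile normalization of the processed signal 4 lower at 0 h, the strict filter 3 lower at 0 h and 4 lower for the difference, and the mean of all probes 1 lower for the difference. Over all genes, the deposited table had 3.77% higher and 5.33% lower at 0 h and 4.72% lower for the difference. Quantile normalization had 7.9% lower at 0 h, the strict filter 9.89% at 0 h and 9.2% for the difference, and the mean of probes 6.97%. The replicate block gave 7 higher and 4 lower at 0 h (11.2% and 12.8% of all genes) and 11 higher at 24 h (15.9%) at the adjusted p alone. It added Eprs to the members called lower in the Tet2KD induction, and it changed no other call of at least 2-fold.

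Without 1 array each in turn, the members called lower ranged from 2 to 5 in the control induction (5 without control 24 h replicate 1), from 0 to 1 at 0 h, at 24 h and for the difference, and those called higher for the difference from 0 to 1. At the adjusted p alone they ranged from 0 to 2 higher and 0 to 1 lower at 0 h, from 0 to 1 in both directions at 24 h, and from 0 to 3 higher and 0 to 1 lower for the difference. Where a fit left 1 array in a group, that array was assumed to vary like the others. Among genes of the other lists, Hspa5 in the Tet2KD induction had 0.26 and reversed with normexp (-0.15), in the deposited table (-0.15) and with quantile normalization (-0.11), and Ppp1r15b reversed with median scaling (-0.018). The causes of these changes were not tested.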
